A study of Homo sapiens with 10 samples.

Results

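The 3-miRNA mixed group was compared with the scrambled control across all genes in BEAS2B cells, a line derived from normal human bronchial epithelium. The comparison used the count tables labelled as mixture and as miRcontrol, which are 4 of the 10 mRNA-sequencing libraries analysed here, 2 per group. The study asked what the miRNAs of its serum exosome panel for small cell lung cancer do to gene expression in a normal lung line. The miRcontrol cells are labelled WT and received scrambled miRNA at 50 nM. The mixed cells received mimics of miR-3124-5p and miR-200b-3p and an inhibitor of miR-92b together. All groups were transfected by lipofection, RNA was taken after 48 h, and mRNA was selected by its poly(A) tail. The amount of each miRNA in the mixture is not given in the sources used here, and neither is the arm of miR-92b that the inhibitor binds. The sources do not say whether the libraries of a group came from separate transfections, so p-values measure only the spread between libraries, which may be technical. The other 3 groups each received 1 of the agents at 50 nM and enter only the last comparison and 1 set of library sums. The cells are 1 line grown in culture, and in bulk RNA fewer cells of a type and less RNA per cell cannot be told apart.

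The miRcontrol libraries held 17666345 and 16773655 counts and the mixed libraries 18004955 and 18503890 counts. Levels are given as normalized CPM, which are counts scaled to a common library total. The median difference between the libraries of a pair was 0.06 on the log2 scale in either group, and edgeR's common dispersion was 0.000752. Of the 14 bronchial epithelial markers listed, 8 had enough counts to be tested. KRT7, KRT8 and KRT18 were high in every library, while TP63 and SLPI had no count in any of the 4 libraries and KRT5 had 2 to 9 counts. EPCAM and CDH1, which define most epithelia, were close to the detection floor in miRcontrol. Of 15 secretory and ciliated markers, 10 fibroblast markers, 11 immune markers and 8 endothelial markers, 2, 4, 2 and 2 had enough counts to be tested. Of those tested, 5 bronchial epithelial markers rose and 1 fell, and 2 fibroblast markers rose and 2 fell. Among secretory, immune and endothelial markers 0, 1 and 2 rose and 1, 1 and 0 fell, and these counts changed when 1 library was left out. SCGB1A1, MUC5AC, DCN, NKG7 and ERG were at 0 in all 4 libraries. The ribosomal protein gene RPS25 and the proteasome subunit genes PSMB3 and PSMC4 were also at 0 in all 4. A count of 0 in these data therefore need not mean that a gene was silent, and its cause was not tested.

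A miRNA guides an Argonaute protein to messenger RNAs that carry a match to its seed, mostly in the 3′UTR, and lowers their stability and translation. A mimic adds such activity and an inhibitor takes it away. The miR-200 family is best known for repressing ZEB1 and ZEB2, transcription factors that silence E-cadherin and other epithelial genes.

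The mature miRNAs are printed below as RefSeq gives them (GRCh38.p14), because their seeds (bases 2 to 8, in capitals) set which transcripts they could match. Both arms of miR-92b are shown. All lie on chromosome 1.
hsa-miR-3124-5p: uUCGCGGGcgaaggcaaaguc
hsa-miR-200b-3p: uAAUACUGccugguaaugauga
hsa-miR-92b-5p: aGGGACGGgacgcggugcagug
hsa-miR-92b-3p: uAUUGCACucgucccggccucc
Their positions are chr1:248826383-248826403, chr1:1167160-1167181, chr1:155195196-155195217 and chr1:155195237-155195258, in this order and each on the plus strand. No seed is shared between them.

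A 3′UTR, taken from each gene's longest coding transcript, was available for 12119 tested genes, and its sense strand was searched for the 7 bases that pair with each seed. These were CCCGCGA for miR-3124-5p, CAGTATT for miR-200b-3p, CCGTCCC for miR-92b-5p and GTGCAAT for miR-92b-3p. Strong falls of the mixed group whose 3′UTR holds a match are shown here as stretches of 30 bases with the match in capitals. ZEB1 and ZEB2 held 3 and 4 matches extended by a further A (8 bases), of which the one nearest the start of the 3′UTR is given. SYDE1, a GTPase-activating protein, and NECTIN4, a cell adhesion molecule, held 1 each, as did THBS1 (thrombospondin-1), which rose.
ZEB1 (chr10:31527622-31527651, plus strand): ttttatcttatCAGTATTAtcactcttatg
ZEB2 (chr2:144388978-144389007, minus strand): ctacaatgcatCAGTATTAtgattcctctg
SYDE1 (chr19:15114365-15114394, plus strand): gccaaccaaatCAGTATTAgctttgagcac
NECTIN4 (chr1:161072190-161072219, minus strand): agaccccagagCAGTATTAatgatgcagag
THBS1 (chr15:39598850-39598879, plus strand): agaaaagcctcCAGTATTAagctcctgaat
The match to miR-3124-5p is rare, and 4 of the 7 genes with it among the strongest falls are shown, named after their values were seen. They are NMT2 (an N-myristoyltransferase), SEMA6B (a semaphorin), TMEM184B (a transmembrane protein) and ST3GAL2 (a sialyltransferase).
NMT2 (chr10:15108157-15108186, minus strand): aagagcctgtaCCCGCGActaactagactt
SEMA6B (chr19:4543473-4543502, minus strand): ctcaagtccccCCCGCGAcccacccgcgga
TMEM184B (chr22:38221090-38221119, minus strand): agcccctcctcCCCGCGAgactctcaggct
ST3GAL2 (chr16:70381596-70381625, minus strand): aggaccagcaaCCCGCGAccaatcatgctg

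Of 14884 genes tested, 467 were called higher in the mixed group (3.14%) and 228 lower (1.53%), with fold changes of 2 or more and a Benjamini-Hochberg adjusted p under 0.05 by edgeR's quasi-likelihood test. Without a limit on size, 3203 genes rose (21.5%) and 3147 fell (21.1%), and 5655 of these changed by less than 2-fold. Counts of rises and falls in the gene lists below are to be read against these shares. The median log2 difference of all tested genes was 0.00 and the median size of a difference was 0.23. Large changes were mostly rises. A change of at least 4-fold was fitted for 140 of the genes called higher and for 27 of those called lower. Of the called genes, 693 of 695 had both mixed libraries on 1 side of both control libraries, against 69.5% of all tested genes. Most genes named below were chosen by their size of change or adjusted p, so separation of their libraries follows largely from that choice. Called genes were mostly weakly expressed, with a median of 2.18 CPM for those higher and 2.22 CPM for those lower, against 21.8 CPM for all tested genes. Where neither library of a group had more than 3 counts of a gene (0.175 CPM in miRcontrol), the gene was below the floor there, and its change is given only as a bound. This held for 52 of the genes called higher and 16 of those called lower.

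The 15 largest rises among called genes with a mean of at least 1 CPM included several genes of epithelial cells. ZBED2, a zinc finger factor, had 0.172 and 0 CPM in miRcontrol and 4.81 and 4.47 CPM in the mixed group, at least 26.4-fold higher. EPCAM, an epithelial adhesion molecule, went from 0.458 and 0.119 CPM to 5.70 and 5.27 CPM, a log2 difference of 4.20 ± 0.34 (SE) (3.56 without control library 2 and 5.44 without control library 1). SH2D3A, a signalling adaptor on chromosome 19 (6752160 to 6767435), was the best measured of them, at 2.98 and 2.39 CPM in miRcontrol and 34.1 and 32.1 CPM in the mixed group (log2 difference 3.62 ± 0.13, adjusted p = 6.24e-28). Groups had to be apart for a gene to enter this list, so the gap between control and mixed libraries adds no support. RAB17, a GTPase of epithelial membrane traffic, rose from 0.286 and 0.418 CPM to 5.14 and 5.06 CPM. CDS1, an enzyme of phospholipid synthesis, rose from 0.286 and 0.298 CPM to 3.48 and 3.39 CPM. CRB3, a protein of the apical polarity complex, and CDH1, E-cadherin on chromosome 16 (68737292 to 68835537), were at the floor in miRcontrol and were at least 13.3-fold and at least 12.8-fold higher. SCEL, a protein of the cornified envelope, was at least 14.2-fold higher. The list was not only epithelial. It also held IL23A, a subunit of interleukin-23 (log2 difference 4.11 ± 0.38, or 3.56 without control library 2 and 5.05 without control library 1), SAA1, an acute-phase protein (3.52 ± 0.41), the T cell kinase LCK (at least 17.0-fold) and the prostaglandin transporter SLCO2A1 (at least 16.1-fold).

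The 15 largest falls under the same limit were of mixed kinds. SYDE1 on chromosome 19 (15107401 to 15114974) had 113 and 111 CPM in miRcontrol and 27.4 and 25.2 CPM in the mixed group (log2 difference -2.09 ± 0.06, adjusted p = 2.16e-30). ACTN1, the actin crosslinker alpha-actinin-1 on chromosome 14 (68874128 to 68979302), had 1203 and 1190 CPM against 303 and 320 CPM (-1.94 ± 0.04, adjusted p = 1.89e-37). ACTN1 was the only gene of this group above 1000 CPM in miRcontrol, and its mixed libraries lay far below both controls. TMEM158, a transmembrane protein known from RAS-induced senescence, had 58.8 and 55.5 CPM against 16.3 and 15.3 CPM (-1.85 ± 0.08). NECTIN4 had 1.89 and 1.67 CPM against 0.332 and 0.484 CPM (-2.10 ± 0.45). POSTN, the matrix protein periostin, fell by 1.83 ± 0.33, DIO2, which activates thyroid hormone, by 1.70 ± 0.21, and C1QL1 and C1QL4, secreted C1q-like proteins, by 1.72 ± 0.16 and 1.92 ± 0.25 on the log2 scale. HIST1H2BG, a histone gene whose transcript mostly lacks a poly(A) tail, had 5.84 and 2.81 CPM in miRcontrol against 1.16 and 1.08 CPM, and its difference of -1.95 was -2.38 without control library 2 and -1.32 without control library 1. HOXC4 had 1.49 and 2.81 CPM against 0.663 and 0.646 CPM, and it did not pass without control library 2 (adjusted p = 0.0677).

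**Figure D1:**
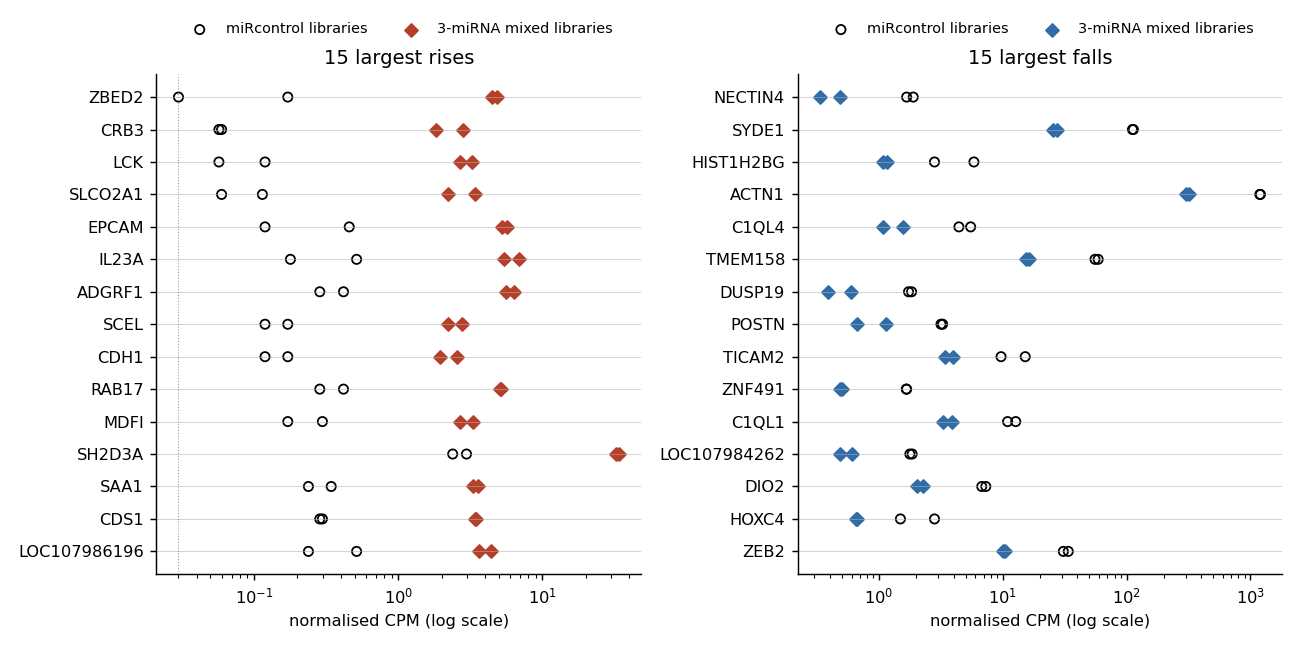
Normalized CPM (log10 axis) in each miRcontrol and mixed library for the 15 largest rises and the 15 largest falls among called genes with a mean of at least 1 CPM whose groups did not overlap. A library with no count is drawn at the dotted line; ACTN1 and SYDE1 are the falls with the highest levels, and SH2D3A the rise with the highest level.

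By absolute level, the 10 transcripts that gained most were KRT7, KRT18, KRT8, HMGA1, MMP1, SPARC, CDK6, TGFBR2, THBS1 and CDCP1. KRT7 went from 826 and 761 CPM to 1465 and 1444 CPM, KRT8 from 814 in both to 1387 and 1357 CPM, and KRT18 from 619 and 638 CPM to 1246 and 1269 CPM. These simple-epithelium keratins rose by 0.88 ± 0.04, 0.75 ± 0.03 and 1.001 ± 0.03 on the log2 scale. The transcripts that lost most were ACTB, FN1 and VIM. ACTB, cytoplasmic beta-actin, went from 7169 and 7130 CPM to 3807 and 3815 CPM (-0.91 ± 0.03, adjusted p = 1.65e-28). FN1, fibronectin, went from 3181 and 3347 CPM to 2026 and 1953 CPM (-0.71 ± 0.03). VIM, the mesenchymal intermediate filament vimentin, went from 3894 and 3707 CPM to 2684 and 2775 CPM (-0.48 ± 0.03). None of these groups overlapped, and the libraries of a pair were far closer to each other than to the other group. HSP90AA1, a chaperone, fell by 0.64 ± 0.04, LDHA, lactate dehydrogenase, by 0.52 ± 0.03, and MYH9, non-muscle myosin, by 0.38 ± 0.03.

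Among 38 tested genes known as miR-200 family targets, 23 fell and 4 rose, with a median log2 difference of -0.19 against 0.00 over all genes. ZEB1 on chromosome 10 (31318417 to 31529804) had 63.3 and 62.9 CPM in miRcontrol and 29.7 and 28.5 CPM in the mixed group (-1.12 ± 0.06, adjusted p = 9.67e-20). ZEB2 on chromosome 2 (144384081 to 144520119) had 33.8 and 30.8 CPM against 10.3 and 10.1 CPM (-1.66 ± 0.09). Both repressors were below their control range in both mixed libraries. MARCKS, an actin-binding protein kinase C substrate on chromosome 6 (113857345 to 113863475), had 428 and 432 CPM against 184 and 179 CPM (-1.24 ± 0.04). PPM1F, a phosphatase, fell by 1.19 ± 0.06 and QKI, an RNA-binding regulator of splicing, by 0.95 ± 0.04. The 4 members that rose, named after their values were seen, were the Notch ligand JAG1 (0.94 ± 0.07), the Notch coactivator MAML3 (0.97 ± 0.26), the transcription factor ETS1 (0.51 ± 0.04) and the ERBB inhibitor ERRFI1 (0.36 ± 0.04), and MAML3 did not pass without control library 2 (adjusted p = 0.0548). Of the 7 tested genes that the study names as miR-200b-3p targets, 5 fell, HMGB3 among them (-0.77 ± 0.05), and 2 rose. These were the cholesterol transporter ABCA1, at 14.2 and 16.5 CPM against 25.3 and 26.7 CPM (0.76 ± 0.09), and the Hippo kinase LATS2 (0.30 ± 0.05).

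Tested genes of epithelial junctions and identity mostly rose. Of 35 tested members 23 rose (65.7%, against 21.5% of all tested genes) and 1 fell, with a median log2 difference of 0.85. The other 13 of the 48 listed had too few counts to be tested. OVOL2, MAL2 and AP1M2 had no count in any of the 4 libraries, which need not mean that they were silent. ESRP1 had 1 and 3 counts in the mixed libraries, and GRHL2 had 2 and 0. SPINT2, an inhibitor of epithelial serine proteases, had 17.5 and 15.5 CPM in miRcontrol and 96.7 and 95.0 CPM in the mixed group (2.53 ± 0.07, adjusted p = 2.77e-32). F11R, a tight junction adhesion molecule, had 44.9 and 44.2 CPM against 162 and 153 CPM (1.82 ± 0.05). The desmosome genes DSG2 and DSP went from means of 149 and 133 CPM to 331 and 262 CPM, and rose by 1.15 ± 0.04 and 0.97 ± 0.04. The member that fell was CLDN7, a claudin, at 0.916 and 0.716 CPM against 0.166 and 0.108 CPM, at least 4.99-fold lower. Among 9 tested keratins 6 rose and 1 fell. That was KRT19, a keratin of simple epithelia, at 8.47 and 7.94 CPM against 2.49 and 2.74 CPM (-1.65 ± 0.18). Among 7 tested nectins and their partners 4 rose, PVR (0.44 ± 0.04) and AFDN (0.44 ± 0.04) with the smallest adjusted p, and NECTIN4 fell.

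Mesenchymal genes moved both ways. Of 24 tested members 8 rose and 9 fell, with a median of -0.10. HMGA2, a chromatin protein of embryonic and tumour cells, had 118 and 109 CPM in miRcontrol and 354 and 393 CPM in the mixed group (1.71 ± 0.05). SPARC, a matricellular protein, rose by 0.75 ± 0.03. LOX, the collagen crosslinker lysyl oxidase, had 305 and 289 CPM against 144 and 153 CPM and fell by 1.004 ± 0.04. CDH2, N-cadherin, had 259 CPM in both control libraries and 237 and 240 CPM in the mixed libraries (-0.12 ± 0.04), and it did not pass without mixed library 1 (adjusted p = 0.0759) or without control library 2 (adjusted p = 0.0501).

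Integrin and laminin subunits rose more often than they fell. Of 28 tested subunits 14 rose and 5 fell, with a median of 0.45, and the count of falls was 3 without mixed library 1, mixed library 2 or control library 1. ITGA2, a collagen-binding integrin chain, had 86.0 and 79.9 CPM in miRcontrol and 313 and 341 CPM in the mixed group (1.98 ± 0.05, adjusted p = 1.88e-34). LAMB3, a laminin chain, had a mean level of 120 CPM against 414 CPM, and rose by 1.78 ± 0.04. ITGB4, which anchors hemidesmosomes to laminin, rose by 1.68 ± 0.05. ITGB6, an epithelial chain with no count in miRcontrol, had 1.11 and 0.861 CPM in the mixed group, at least 5.61-fold higher. All of these had control and mixed libraries apart.

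Genes of the actin cytoskeleton, contractility and focal adhesions fell more often than they rose. Of 73 tested members 35 fell and 13 rose, with a median of -0.09. Beside ACTN1, SYDE1 and ACTB, the actin-binding TAGLN2 had 657 and 673 CPM against 345 and 330 CPM (-0.98 ± 0.04). ARPC4, a subunit of the Arp2/3 complex that nucleates branched actin, had 143 CPM in both control libraries and 69.7 and 70.3 CPM in the mixed libraries (-1.03 ± 0.05). The large falls were therefore in a few members, of which 3 were called lower, and most of the list changed by less than 2-fold.

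Matrix genes split by family. Of 20 tested collagens 11 rose and 1 fell (median 0.30), and the rises included the basement membrane chains COL4A1 (0.62 ± 0.04) and COL4A2 (0.49 ± 0.04). Of 31 tested matricellular and crosslinking genes 12 rose and 12 fell. TGM2, tissue transglutaminase, had 130 and 120 CPM against 368 and 385 CPM (1.59 ± 0.04), and CTGF, a YAP and TGF-beta target, rose by 0.89 ± 0.04. Of 31 tested metalloproteinases and inhibitors 14 rose and 6 fell. MMP1, interstitial collagenase, had 769 and 700 CPM against 1151 and 1217 CPM (0.69 ± 0.04), and ADAMTS15 rose by 1.59 ± 0.09. Of 15 tested genes of the plasminogen activator system 9 rose and 4 fell. PLAU, urokinase, had 169 and 175 CPM against 427 and 421 CPM (1.30 ± 0.04), while PLAT, tissue plasminogen activator, fell by 0.76 ± 0.05.

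Inflammatory cytokines and chemokines rose. Of 29 tested genes 14 rose and 1 fell, with a median of 0.71. IL11, a cytokine of the IL-6 family on chromosome 19 (55364382 to 55370463), had 53.5 and 50.6 CPM in miRcontrol and 212 and 216 CPM in the mixed group (2.04 ± 0.05, adjusted p = 1.88e-34). IL1A, an epithelial alarmin, had 8.24 and 9.97 CPM against 48.4 and 50.5 CPM (2.44 ± 0.09). IL24 had 3.72 and 3.64 CPM against 19.8 and 21.5 CPM (2.49 ± 0.13). In all of these the control libraries were well below the mixed libraries. IL1B rose by 1.01 ± 0.08. The member that fell was TNFSF9, a ligand of the TNF family (-0.77 ± 0.22). Of 34 tested NF-kB components and feedback genes 21 rose and 3 fell, with a median of 0.33. BIRC3, an inhibitor of apoptosis and a standard NF-kB target, had 24.6 and 22.4 CPM against 96.9 and 103 CPM (2.09 ± 0.07). TRAF1, an adaptor of TNF receptors, rose by 2.86 ± 0.16, TNFAIP3, which ends NF-kB signalling, by 1.45 ± 0.07, and ICAM1, a leukocyte adhesion molecule, by 1.03 ± 0.04.

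Interferon-stimulated genes rose, with a gap between the mixed libraries. Of 52 tested genes 33 rose and 6 fell, with a median of 0.46. IFI6, which counters apoptosis and viral replication, had 9.39 and 9.49 CPM in miRcontrol but 37.5 and 68.6 CPM in mixed libraries 1 and 2. OAS2, which senses double-stranded RNA, had 0.401 and 0.955 CPM against 2.88 and 7.43 CPM, and MX1, an antiviral GTPase, had 1.32 and 1.43 CPM against 3.54 and 8.34 CPM. Both mixed libraries lay above both controls, and library 2 lay above library 1. This order held for all 13 members called higher, with a median ratio of library 2 to library 1 of 1.83. The ratio was 1.17 over all 52 tested members, with library 2 higher in 44, and 0.998 over all tested genes. In miRcontrol, library 2 was higher for 12 of the 13 called members, with a median ratio of 1.08. The summed level of the 13 was 140 and 226 CPM in the mixed libraries, against 52.1 and 56.8 CPM in miRcontrol. In miR3124_mimic, miR200b_mimic and miR92b_inhibitor the sums were 90.0 and 85.4, 62.3 and 71.4, and 107 and 139 CPM. The log2 differences of OAS2 (2.93 ± 0.43) and MX1 (2.11 ± 0.34) went down to 2.08 and 1.36 without mixed library 2. Without that library 26 members rose and 8 were called, and without mixed library 1 the counts were 32 and 16. What set the mixed libraries apart was not tested. IRF9, a part of the interferon-activated transcription complex, rose by 1.36 ± 0.12, and LAMP3, a lysosomal membrane protein, by 2.58 ± 0.17. Of 19 tested genes of MHC class I presentation 10 rose and 2 fell, HLA-B by 0.69 ± 0.06. HLA genes share near-identical stretches, so their counts are uncertain.

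EGF-family ligands rose while the main receptor did not pass. Of 14 tested ligands, receptors and partners 6 rose and 2 fell, with a median of 0.44. AREG, the ligand amphiregulin, had 5.32 and 5.49 CPM in miRcontrol and 23.2 and 26.1 CPM in the mixed group (2.19 ± 0.12, adjusted p = 5.01e-20). TGFA had 25.5 and 25.6 CPM against 55.3 and 58.8 CPM (1.16 ± 0.07), and HBEGF rose by 0.50 ± 0.05. The receptor EGFR had 298 and 278 CPM against 293 and 307 CPM (0.06 ± 0.04, adjusted p = 0.237), so its groups overlapped. ERBB3 rose by 1.001 ± 0.14 and ERBB2 fell by 0.33 ± 0.06. Among listed phosphatases and Sprouty proteins that dampen MAPK signalling, and its target transcription factors, 13 of 21 tested rose and none fell. Their median was 0.35, and the 8 that did not pass included the lowest difference, -1.28. DUSP19, a dual-specificity phosphatase that was not in this list, fell from 1.83 and 1.73 CPM to 0.387 and 0.592 CPM (-1.84 ± 0.45). DUSP6 had 16.7 and 16.4 CPM against 48.2 and 49.6 CPM (1.57 ± 0.08), and DUSP5 and ETV4 rose by 1.43 ± 0.06 and 1.47 ± 0.08.

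**Figure D2:**
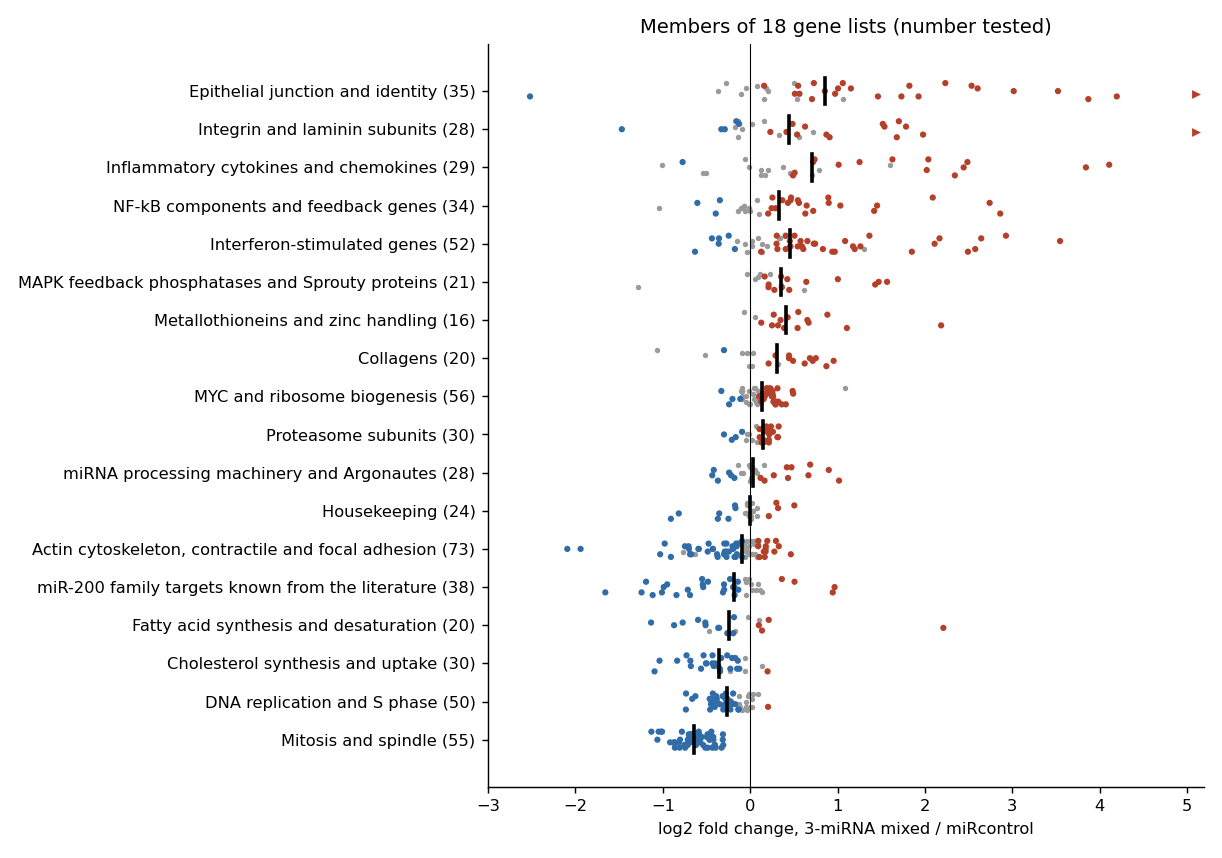
Log2 difference of the 3-miRNA mixed group minus miRcontrol for every tested member of selected gene lists, 1 point per gene, with each list's median marked. Mitosis genes (median -0.64) lie wholly below 0, epithelial junction genes (0.85) mostly above it, and values beyond the axis are drawn as triangles at its edge.

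Other signalling lists had fewer large changes. Of 22 tested AP-1 and immediate early factors 11 rose and 2 fell (median 0.37). EGR1 had 9.44 and 7.94 CPM in miRcontrol and 45.8 and 47.998 CPM in the mixed group (2.43 ± 0.11), and FOS had 0.687 and 0.716 CPM against 4.42 and 4.41 CPM (2.64 ± 0.31). JUND, an AP-1 partner, fell by 0.89 ± 0.06. Of 35 JAK-STAT genes 15 rose and 5 fell (median 0.03). Among these, IL6R, the receptor chain that binds interleukin-6, had 9.50 and 9.13 CPM against 41.4 and 45.6 CPM (2.22 ± 0.09), while its partner IL6ST rose by 0.52 ± 0.04. Of 41 genes of TGF-beta and BMP signalling 11 rose and 14 fell (median -0.10). INHBA, which encodes the activin A subunit, had 29.5 and 32.9 CPM against 101 and 107 CPM (1.74 ± 0.06), the receptor TGFBR2 had 418 and 409 CPM against 821 and 840 CPM (1.005 ± 0.04), and ACVR1B, an activin receptor, fell by 0.96 ± 0.09. In the Wnt pathway 9 of 35 rose and 9 fell (25.7% each, near the 21.5% and 21.1% over all tested genes). The secreted antagonist DKK1 had 225 and 205 CPM against 84.9 and 90.8 CPM (-1.29 ± 0.05). Rises and falls numbered 6 and 5 of 21 in the Notch pathway, 12 and 9 of 29 in the Hippo pathway and 10 and 5 of 19 among other receptor tyrosine kinases. The falls were 3 without control library 1 in the Notch pathway, and among the kinases they were 2 without mixed library 2 and 3 without either control library. EPHA2, an ephrin receptor, rose by 0.79 ± 0.04, and the receptors AXL and MET by 0.25 ± 0.03 and 0.23 ± 0.03. Of 7 SRC-family genes 3 rose and 2 fell, and 1 rise was left without mixed library 2 or without either control library.

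Mitotic genes fell almost without exception. Of 55 tested genes of mitosis and the spindle 53 fell and none rose, with a median of -0.64, and their summed level went from 13168 and 13176 CPM in miRcontrol to 8350 and 8158 CPM in the mixed group. The count of falls was 53 or 54 under each of the 12 alternative settings. MKI67, the proliferation marker on chromosome 10 (128096659 to 128126423), had 1345 and 1360 CPM against 660 and 648 CPM (-1.05 ± 0.03, adjusted p = 4.53e-29). KIF20A, a kinesin of cytokinesis, had 220 and 239 CPM against 107 and 102 CPM (-1.13 ± 0.05), KIF14 had 146 and 145 CPM against 69.6 and 69.8 CPM (-1.06 ± 0.05), and the mitotic kinase AURKA had 266 and 264 CPM against 132 in both (-1.01 ± 0.04). Both mixed libraries lay far below both controls in each of them. The members that did not pass, KIFC1 (-0.69 ± 0.33) and SPC25 (-0.88 ± 0.43), were below 3 CPM in all 4 libraries. Of 50 tested genes of DNA replication 35 fell and 1 rose, with a median of -0.27. RRM2, a subunit of ribonucleotide reductase, had 500 and 503 CPM against 302 and 301 CPM (-0.73 ± 0.04), and TK1 and TYMS, enzymes of thymidine nucleotide supply, fell by 0.74 ± 0.04 and 0.66 ± 0.06. The member that rose was DTL, a ubiquitin ligase adaptor (0.20 ± 0.05).

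The cell cycle genes that control entry into S phase were divided. Of 25 tested G1 cyclins, kinases and inhibitors 14 fell and 4 rose (median -0.12), and 9 fell without mixed library 2. CDK6, a G1 kinase, had 256 and 242 CPM in miRcontrol and 677 and 682 CPM in the mixed group (1.45 ± 0.04, adjusted p = 1.49e-32). CDC25A, a phosphatase that activates these kinases, rose by 0.75 ± 0.05. RBL1, the retinoblastoma-like protein p107, had 146 and 141 CPM against 49.3 and 47.7 CPM (-1.57 ± 0.05), and CDKN2C, an inhibitor of CDK4 and CDK6, fell by 1.16 ± 0.06. CDKN1A, the cyclin-dependent kinase inhibitor p21, had 95.5 and 94.8 CPM against 97.9 and 103 CPM (0.08 ± 0.05, adjusted p = 0.222). MDM2, a ubiquitin ligase, fell by 0.42 ± 0.04.

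Among 30 tested genes of the BCL2 family and death receptors 13 rose and 6 fell (median 0.13), and 3 fell without control library 2. The TRAIL receptors moved together. TNFRSF10D, a decoy receptor, had 74.1 and 67.1 CPM against 171 and 154 CPM (1.20 ± 0.05), and the signalling receptors TNFRSF10A and TNFRSF10B rose by 1.11 ± 0.08 and 0.77 ± 0.04. BCL2A1, an antiapoptotic member, had 0.515 and 0.418 CPM against 3.76 and 2.58 CPM (2.74 ± 0.37), and BAK1, a proapoptotic one, rose by 0.75 ± 0.07.

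Genes of lipid synthesis fell. Of 30 tested genes of cholesterol synthesis and uptake 25 fell and 1 rose, with a median of -0.36. SREBF1, a master regulator of lipid synthesis, had 88.4 and 99.7 CPM in miRcontrol and 57.6 and 47.8 CPM in the mixed group (-0.84 ± 0.06). INSIG1, a sterol sensor partner, fell by 0.56 ± 0.05. The member that rose was NPC1, which exports cholesterol from lysosomes (0.20 ± 0.04). Of 20 tested genes of fatty acid synthesis and desaturation 11 fell and 4 rose (median -0.24), and 2 rose without mixed library 2, control library 1 or control library 2. SCD, the delta-9 desaturase, had 765 and 856 CPM against 381 and 358 CPM (-1.13 ± 0.05, adjusted p = 7.41e-25), and FADS1, FADS2 and FASN fell by 0.87 ± 0.05, 0.77 ± 0.05 and 0.51 ± 0.04. ELOVL7, a fatty acid elongase, rose from 1.66 and 1.01 CPM to 6.41 and 6.08 CPM (2.21 ± 0.24). Genes of cholesterol efflux went the other way, with 6 of 12 rising and 2 falling (median 0.38). MYLIP, a ubiquitin ligase, rose by 0.92 ± 0.14, and the high-density lipoprotein receptor SCARB1 fell by 0.37 ± 0.06.

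Growth and housekeeping lists had small medians, but some moved more often than all tested genes. Proteasome subunits (66.7%) and genes of MYC and ribosome biogenesis (51.8%) rose more often than all tested genes (21.5%). Of 76 tested ribosomal proteins 19 rose and 5 fell, with a median of 0.06, and 9 rose and 3 fell without mixed library 2, and 11 rose without control library 1. RPS2 had the smallest adjusted p among them and fell by 0.52 ± 0.04. Of 56 genes of MYC and ribosome biogenesis 29 rose and 4 fell (median 0.14), MYC itself by 0.29 ± 0.05 and DKC1, a pseudouridine synthase, by 0.49 ± 0.04. Of 30 proteasome subunits 20 rose and 4 fell (median 0.15), and 2 fell without control library 2. In polyamine metabolism 7 of 20 rose and 5 fell, and the enzymes of consecutive steps diverged. ODC1, ornithine decarboxylase, had 325 and 326 CPM against 472 and 483 CPM (0.55 ± 0.04), whereas SRM, spermidine synthase, had 125 and 122 CPM against 60.4 and 60.9 CPM (-1.03 ± 0.05). Of 61 respiratory chain subunits 11 rose and 8 fell (median 0.02), and 5 rose without mixed library 2 and 6 without control library 1. Of 15 mitochondrially encoded transcripts 1 rose and 3 fell, and 3 rose without control library 1. Of 24 housekeeping genes 4 rose and 7 fell (median -0.01). GAPDH had 3641 and 3781 CPM against 3695 and 3633 CPM (-0.02 ± 0.03, adjusted p = 0.688), while ACTB and the late endosome GTPase RAB7A (-0.82 ± 0.04) fell.

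Among stress programmes, genes of metal handling rose. Of 16 tested metallothioneins and zinc transporters 14 rose and none fell, with a median of 0.41. MT1E had 72.9 and 84.2 CPM in miRcontrol and 168 and 170 CPM in the mixed group (1.11 ± 0.05), and MT2A had 458 and 438 CPM against 676 and 736 CPM (0.65 ± 0.04). Of 39 ATF4 targets 17 rose and 12 fell (median 0.08), and PPP1R15A, the stress-induced phosphatase subunit GADD34, had 142 and 135 CPM against 288 and 292 CPM (1.07 ± 0.04). Rises and falls numbered 12 and 18 of 43 for hypoxia and glycolysis, 13 and 12 of 34 for endoplasmic reticulum folding, 8 and 12 of 33 for NRF2 targets, 5 and 9 of 22 for heat shock proteins, 5 and 6 of 14 for the aryl hydrocarbon response and 12 and 11 of 35 for lysosome and autophagy. HMOX1, heme oxygenase, had 28.3 and 25.7 CPM against 16.1 and 15.8 CPM (-0.76 ± 0.09). The falls of heat shock proteins numbered 5 without mixed library 2 or control library 1, and those of lysosome genes 7 without mixed library 2. The rises of NRF2 targets numbered 5 without mixed library 2 or control library 2, and those of the aryl hydrocarbon response 3 without either control library.

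Genes of the miRNA machinery itself moved both ways. Of 28 tested members 10 rose (35.7%) and 6 fell (21.4%), against 21.5% and 21.1% of all tested genes (median 0.03). DICER1, which cuts miRNA precursors, had 136 and 133 CPM in miRcontrol and 245 and 256 CPM in the mixed group (0.90 ± 0.04, adjusted p = 1.59e-23). DCP2, the enzyme that removes the cap from messenger RNA, had 80.2 and 78.7 CPM against 163 and 159 CPM (1.02 ± 0.04), and its partner DCP1A rose by 0.69 ± 0.05. AGO2, the slicing Argonaute, had 218 and 209 CPM against 291 and 287 CPM (0.43 ± 0.04). Of 9 tested host transcripts of miRNAs 4 fell and none rose, and 2 fell without mixed library 1 and 1 without control library 2. Of 35 Polycomb and DNA methylation genes 11 rose and 9 fell, EZH2 and DNMT1, which write the repressive marks, by 0.61 ± 0.06 and 0.38 ± 0.04 downwards. Of 13 tested neuroendocrine and small cell lung cancer markers 2 rose and 3 fell. STMN1, a microtubule regulator, fell by 0.29 ± 0.04 and the tubulin TUBB3 by 0.30 ± 0.06, and the synaptic vesicle gene SYP, with 0.630 and 0.298 CPM in miRcontrol, had no count in either mixed library. POU2F3, a transcription factor of tuft cells, had 0 and 0.119 CPM against 0.774 and 0.377 CPM, at least 3.28-fold higher, and did not pass without mixed library 1 (adjusted p = 0.102) or control library 1 (adjusted p = 0.108). The Hippo coactivator YAP1 had means of 265 and 285 CPM (0.10 ± 0.04, adjusted p = 0.0247). Of the list, 1 member rose when either mixed library or control library 2 was left out and none without control library 1.

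A few further lists were small. Of 9 tested HMGA, HMGB and IGF2BP genes 5 rose and 3 fell. HMGA1, a chromatin protein, had 976 and 952 CPM in miRcontrol and 1474 and 1436 CPM in the mixed group (0.59 ± 0.03), while HMGB2 fell by 0.60 ± 0.04. Of 7 kinesin-1 subunits 5 rose and none fell, but 3 rose without mixed library 2 and 1 without control library 2. Of 14 genes of prostaglandin synthesis, transport and reception 3 rose and 3 fell (21.4% each, near the shares over all tested genes). Only 1 fell without mixed library 1 or without either control library. Of 24 long noncoding host transcripts of small RNAs 5 rose and 4 fell, with GAS5 higher by 0.55 ± 0.07. In that list 3 rose without mixed library 2 or control library 1, and 2 fell without mixed library 2 or control library 2.

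Falls were next set against the seed matches printed above. Of the 174 genes called lower with a 3′UTR, 7 held a match to miR-3124-5p (4.02%), against 59 of all 12119 (0.487%) and 0 of the 379 called higher. The 58 genes with exactly 1 such match had a median log2 difference of -0.34, and 62.1% of them fell, against 23.8% of genes without one. Their 3′UTRs were longer, at a median of 2029.5 bases against 1023. The 14 genes with the 8-base form had a median log2 difference of -0.25, and 57.1% of them fell. NMT2 had 181 and 180 CPM in miRcontrol and 77.1 and 72.8 CPM in the mixed group (-1.27 ± 0.05). SEMA6B had 20.1 and 21.2 CPM against 6.41 and 6.73 CPM (-1.65 ± 0.12), and TMEM184B had 129 and 130 CPM against 63.3 and 62.1 CPM (-1.05 ± 0.05). All 3 lay below their controls in both mixed libraries, and their levels in the groups with 1 agent are given below. The others were ST3GAL2 (-1.08 ± 0.07), DNAL4, a dynein light chain (-1.29 ± 0.22), CNKSR3, a scaffold of the RAS pathway (-1.08 ± 0.10), and the histone gene HIST1H4E (-1.12 ± 0.28). Without control library 1, CNKSR3 was under a fold change of 2 (-0.99) and HIST1H4E did not pass (adjusted p = 0.0788).

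A match to miR-200b-3p was held by 23.6% of the genes called lower and 11.3% of those called higher, against 17.2% of all, and its 8-base form by 9.20%, 1.055% and 4.71%. The 109 genes with 3 or more matches had a median of -0.07, 39.5% of them fell and 27.5% rose, against 22.8% and 24.3% of genes with none. The 370 genes with 2 matches had a median of -0.01, with 31.4% falling and 26.8% rising. With 3 or more matches the 3′UTRs were long, at a median of 6506 bases against 812, and among 3′UTRs of 200 to 5000 bases the median for 3 or more matches was -0.12 (38 genes). For miR-92b-5p the shares were 8.62% of genes called lower, 2.64% of those called higher and 3.61% of all. The 391 genes with 1 match to it had a median of -0.08, with 31.5% falling and 21.2% rising, and the 39 genes with 2 had a median of -0.20, with 46.2% falling and 15.4% rising, against 23.7% and 24.6% of genes with none. Its 8-base form, held by 109 genes, went with a median of -0.03. For miR-92b-3p they were 14.4%, 8.97% and 11.01%, and the 403 genes with its 8-base match had a median of 0.03, with 34.7% rising and 21.6% falling. The 3′UTRs of genes called higher and lower had median lengths of 1058 and 1093 bases and median GC contents of 45.4% and 45.8%, against 1029 bases and 42.3% over all genes. These shares are descriptions with no test, and the part of length and base composition in them was not tested.

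**Figure D3:**
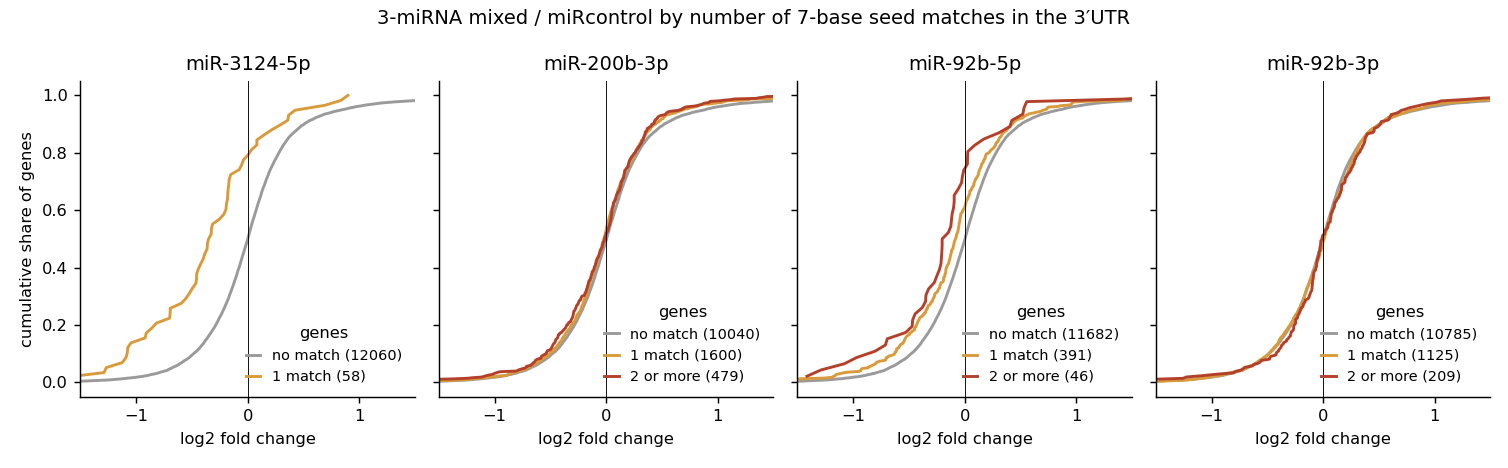
Cumulative share of genes against the log2 difference of the 3-miRNA mixed group minus miRcontrol (axis limited to values from -1.5 to 1.5), by the number of 7-base seed matches in the 3′UTR, 1 panel per miRNA. The curve of the 58 genes with 1 match to miR-3124-5p lies to the left of the curve of genes without a match. Those of genes with matches to miR-92b-5p lie to the left by less, and the curves for miR-200b-3p and miR-92b-3p lie nearer to each other.

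The mixed group was then compared directly with each group that received 1 agent at 50 nM. The mixed libraries are the same in all of these comparisons and in the comparison with miRcontrol, and the dose of each agent in the mixture may differ from 50 nM, so the values are given side by side. At an adjusted p under 0.05, 7308 genes differed from miR3124_mimic (49.1%), 5748 from miR200b_mimic (38.6%) and 5886 from miR92b_inhibitor (39.5%). ACTN1 averaged 1197 CPM in miRcontrol and 312 CPM in the mixed group, and 213, 1047 and 1071 CPM in miR3124_mimic, miR200b_mimic and miR92b_inhibitor. Its level in the mixture was thus nearest to that of miR3124_mimic, but 0.55 higher on the log2 scale. ACTB averaged 1686, 6695 and 5908 CPM in the groups with 1 agent, and the mixture was 1.18 higher than miR3124_mimic. SRM, at 15.7, 121 and 141 CPM, was also lowest in miR3124_mimic, and the mixture lay 1.94 above miR3124_mimic and 0.998 below miR200b_mimic on the log2 scale.

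**Figure D4:**
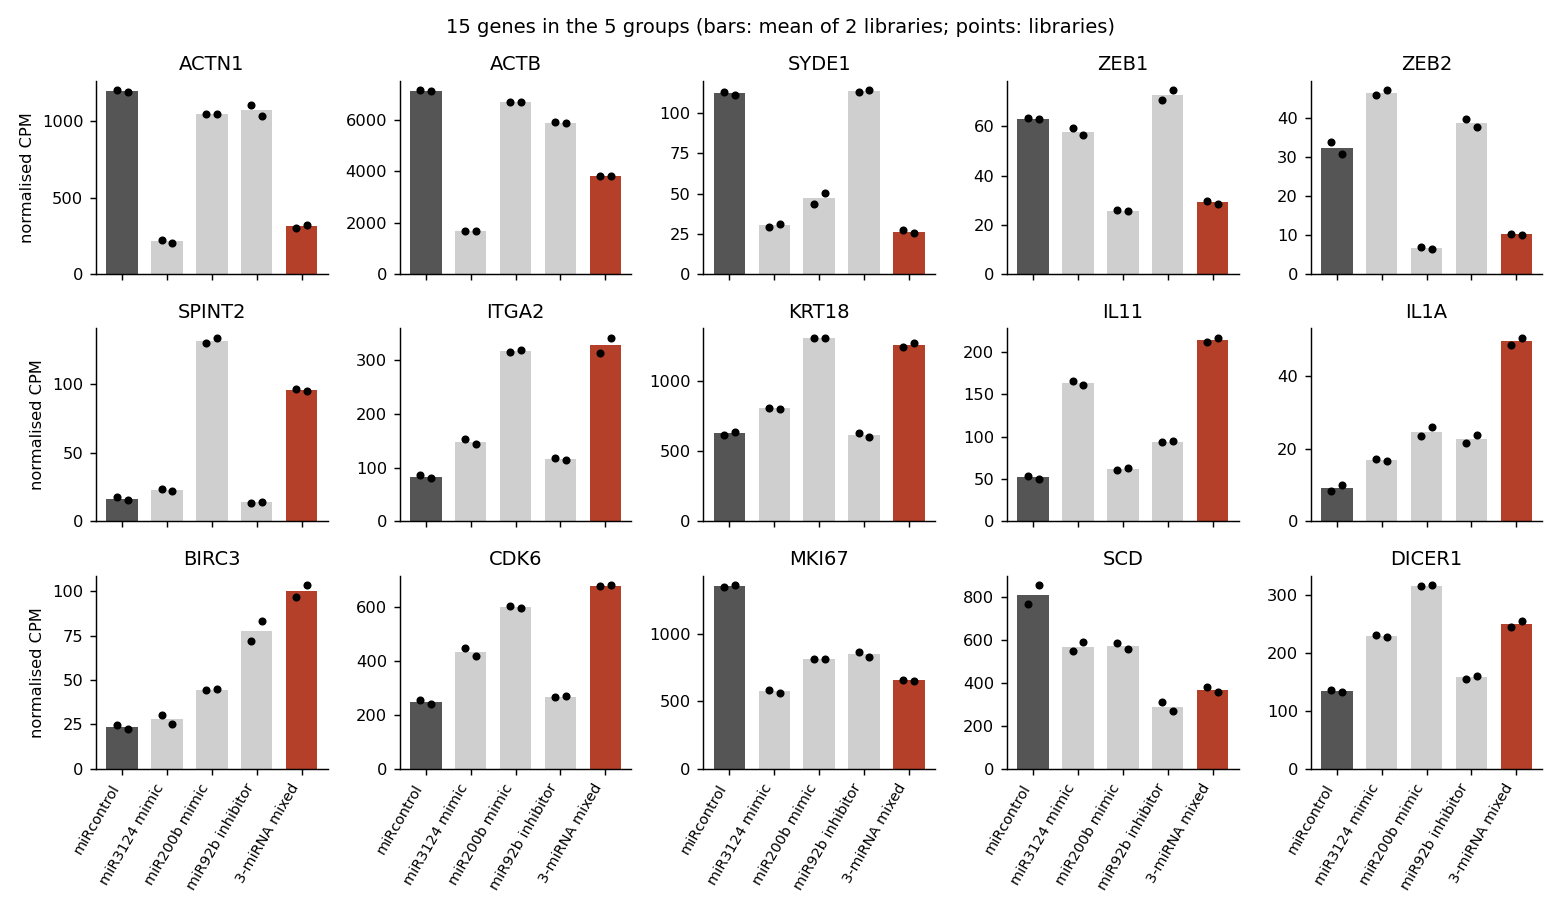
Normalized CPM of selected genes in all 10 libraries, with bars for the mean of the 2 libraries of each group and points for the libraries. ACTN1 is low in miR3124_mimic and in the mixed group, ZEB1 in miR200b_mimic and in the mixed group, and IL11 is highest in the mixed group.

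ZEB1, ZEB2, SPINT2, ITGA2 and KRT18 of the mixture stood closest to miR200b_mimic. ZEB1 averaged 57.9, 25.7 and 72.7 CPM in miR3124_mimic, miR200b_mimic and miR92b_inhibitor, and the mixture did not pass the test against miR200b_mimic (log2 difference 0.18, adjusted p = 0.0574). ZEB2 averaged 46.5, 6.70 and 38.8 CPM, and the mixture lay 0.62 above miR200b_mimic. SPINT2, at 22.7, 132 and 14.0 CPM, was 0.46 lower in the mixture than in miR200b_mimic. ITGA2, at 148, 317 and 116 CPM, did not pass against miR200b_mimic (0.05, adjusted p = 0.398), and neither did KRT18, at 806, 1308 and 617 CPM (-0.06, adjusted p = 0.184). CDH1 averaged 9.97 CPM in miR200b_mimic and 2.24 CPM in the mixture. KRT19 did not follow them. It averaged 0.760, 14.4 and 5.13 CPM against 2.62 CPM in the mixture, which was 2.46 below miR200b_mimic on the log2 scale.

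Other genes were nearest to miR92b_inhibitor or stood above every group with 1 agent. IL24 averaged 6.77, 4.14 and 22.7 CPM, and the mixture did not pass against miR92b_inhibitor (-0.13, adjusted p = 0.280). SCD averaged 569, 574 and 290 CPM, and the mixture lay 0.35 above miR92b_inhibitor and 0.63 and 0.64 below the mimics. EGR1, at 7.51, 20.3 and 41.0 CPM, did not pass against miR92b_inhibitor either (0.19, adjusted p = 0.0789). IL1A averaged 16.9, 24.7 and 22.6 CPM against 49.4 CPM in the mixture, which was higher than each by 1.55, 0.996 and 1.13 on the log2 scale. IL11 averaged 163, 61.8 and 94.1 CPM against 214 CPM in the mixture, higher by 0.39, 1.79 and 1.19. INHBA averaged 20.6, 58.4 and 51.0 CPM, and the mixture was higher by 2.33, 0.84 and 1.03. HMGA2, at 304, 265 and 211 CPM, was higher in the mixture by 0.30, 0.49 and 0.82, and MARCKS, at 345, 231 and 298 CPM, was lower in the mixture by 0.93, 0.34 and 0.71 in log2 units. SYDE1 averaged 30.4, 47.1 and 114 CPM against 26.3 CPM in the mixture, which was lower than miR3124_mimic by 0.21 (adjusted p = 0.0196). MKI67 averaged 574, 810 and 848 CPM against 654 CPM in the mixture, between miR3124_mimic and miR200b_mimic.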

How the data were processed

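BEAS2B mRNA-sequencing libraries were analysed from the deposited values, which are raw read counts per gene made by the authors, with no normalization. The authors trimmed reads and mapped them with TopHat to GRCh38 (the submitters' processing notes). The counting tool and annotation are not given in the sources used here. Repeated symbols (5771 of 58173 rows) were summed, which left 52402. All 10 libraries entered 1 edgeR 4.0.16 fit in R 4.3.3 (filterByExpr, RLE factors from 0.985 to 1.016, quasi-likelihood test, Benjamini-Hochberg adjustment). The steps were tested on simulated data. Log2 differences are given with their standard error. A total of 62 gene lists was described by counts and medians. Some genes and 1 of these lists are not reported here. The members and lists were chosen with earlier results of these data known. Genes were named by rule: the 15 largest rises and falls among called genes with a mean of at least 1 CPM and groups apart; the 10 largest rises and falls in CPM; up to 4 list members with the smallest adjusted p and well-known members; and those with 8-base seed matches. ARPC4, BCL2A1, CLDN7, DTL, ELOVL7, FOS, ITGB6, KIF14, KIFC1, MX1, NPC1, OAS2, SPC25, TNFSF9, YAP1, the miR-200 targets that rose and the genes matching miR-3124-5p were named after their values were seen. Mature miRNAs came from RefSeq and 3′UTRs from the GENCODE annotation on GRCh38. Alternatives were TMM, library totals only, DESeq2 1.42.0, edgeR's exact test, other filters, only the 2 groups, a replicate block, leaving out each library, and 3′UTRs of 200 to 5000 bases.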

Additional observations from a re-analysis of the deposited data

How the results depend on the processing

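A filter of 10 counts in each library left fewer genes to test, and 265 genes were called higher and 137 lower, while 499, 251 and 342 were called against miR3124_mimic, miR200b_mimic and miR92b_inhibitor, where the fit as reported called 934, 512 and 620. DESeq2 called 331 higher and 157 lower, and 316 against miR200b_mimic; the cause was not tested. When 1 library was left out, 420 to 434 genes were called higher and 216 to 261 lower, and 831 to 949, 438 to 468 and 558 to 600 were called against the groups with 1 agent. With an unadjusted p the counts were 528 and 279. Deviations of same-numbered libraries correlated between groups at -0.0625 to 0.0613 over 10419 genes. The deviations were small, so this cannot tell whether same-numbered libraries shared a step of their preparation. With a replicate block 465 genes were called higher and 230 lower. Of 62 alternative counts, 56 were within 1.5 times the reported one. Among 3535 alternative values of 298 named genes, 61 no longer passed. None changed direction where it or the reported value passed, which the choice of most genes by size or adjusted p makes likely. The difference of GAPDH, which did not pass, ranged from -0.0455 to 0.0075. Of 744 alternative list medians, 26 had another sign. With 2 libraries per group, and most called genes near 2 CPM, the folds of weak genes are imprecise.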
